A study of Homo sapiens with 16 samples.

Results

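The PAX genes, PAX1 to PAX9, were followed in BE2C cells, a human neuroblastoma line with amplified MYCN. All 9 were found by symbol in the gene annotation, among 20111 protein-coding genes with a unique symbol. For each gene, its body with 5 kb on each side formed a window, and the values are the percent of that window covered by called regions, the width of those regions and the number of narrow peaks. The histone marks H3K27me3 and H3K4me1 had been mapped by CUT&Tag, in which an antibody tethers a transposase that cuts the DNA beside the mark. Cells transfected for 72 h with 1 siRNA against KDM6B (siKDM6B33) were set against cells with a control siRNA (siCtrl), and cells cultured for 72 h with 2.5 µM GSK-J4 against cells with 0.1% DMSO. Each of the 8 groups had 2 libraries, 16 in all, every one from the same line. GSK-J4 is the cell-permeable ester of a KDM6 inhibitor and is not selective for KDM6B over its relative KDM6A. No transcript was measured here, so neither the knockdown of KDM6B nor the expression of any PAX gene was checked.

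PAX proteins are transcription factors that bind DNA through a paired domain. PAX1 and PAX9 lack a homeodomain, PAX2, PAX5 and PAX8 keep part of one, and PAX3, PAX7, PAX4 and PAX6 carry a whole one. Most are switched on in restricted parts of the embryo and are held silent elsewhere by the Polycomb complex PRC2, which places H3K27me3. KDM6A and KDM6B remove that mark. H3K4me1 is placed at enhancers and beside promoters, and a start site that carries both a repressive and an activating methyl mark is often called poised. PAX3 and PAX7 act at the border of the neural plate, where the neural crest arises, and sympathetic neuroblasts, the cells of origin of neuroblastoma, descend from the crest.

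The promoters of 3 genes are shown first, those of PAX1 and PAX4, which were among the 3 genes with the highest mean H3K27me3 coverage, and that of PAX5, the 1 gene with almost none. Each runs from 250 bases before the start of the canonical transcript to 50 bases into the transcript in GRCh37 (hg19), 5′ to 3′ along the gene, with CpG dinucleotides in capitals.
PAX1 promoter, chr20:21686052-21686351, plus strand: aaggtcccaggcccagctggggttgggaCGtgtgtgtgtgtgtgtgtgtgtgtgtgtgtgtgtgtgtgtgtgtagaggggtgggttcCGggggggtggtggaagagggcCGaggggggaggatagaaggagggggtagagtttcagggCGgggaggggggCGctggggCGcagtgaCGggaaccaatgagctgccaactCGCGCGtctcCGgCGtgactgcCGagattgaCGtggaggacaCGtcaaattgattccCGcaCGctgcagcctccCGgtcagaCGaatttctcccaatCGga
PAX4 promoter, chr7:127258147-127258446, minus strand: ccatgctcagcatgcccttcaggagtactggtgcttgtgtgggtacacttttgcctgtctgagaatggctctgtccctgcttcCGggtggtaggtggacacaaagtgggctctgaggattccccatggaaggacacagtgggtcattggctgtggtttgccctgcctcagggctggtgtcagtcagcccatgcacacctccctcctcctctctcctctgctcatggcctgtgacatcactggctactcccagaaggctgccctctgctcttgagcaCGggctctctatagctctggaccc
PAX5 promoter, chr9:37034216-37034515, minus strand: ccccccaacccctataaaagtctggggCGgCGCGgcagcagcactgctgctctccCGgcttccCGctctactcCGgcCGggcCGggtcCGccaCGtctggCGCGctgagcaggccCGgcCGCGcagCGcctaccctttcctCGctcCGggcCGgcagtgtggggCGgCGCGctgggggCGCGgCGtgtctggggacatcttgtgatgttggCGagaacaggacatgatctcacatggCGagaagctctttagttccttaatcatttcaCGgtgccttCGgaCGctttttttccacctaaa
Promoters covered by H3K27me3 lay on both sides of the median CpG content. The PAX5 promoter held 30 CpG dinucleotides, against a median of 23 over 19489 protein-coding promoters of the same 300 bases. PAX4, whose start lay in an H3K27me3 region in all 8 libraries of that mark, held 2. Of the other promoters, those of PAX1, PAX9, PAX2, PAX8, PAX3 and PAX7 held 12 to 21, and 2 of the 9 promoters, that of PAX5 and that of 1 covered gene, lay above the median. The letters CACGTG, the E-box bound by MYC proteins and the same on both strands, were found in 0 of the 9 windows and in 8.76% of all promoters.

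The libraries differed in depth and, for H3K27me3, in make-up. Broad regions, called islands, numbered 7175 to 16676 in an H3K27me3 library and 17765 to 24917 in an H3K4me1 library. The genome background, in mean tags over a base, was 0.0395 and 0.0401 in the siCtrl H3K27me3 libraries and 0.0539 and 0.0529 after knockdown, so the treated side was deeper. It was 0.0298 and 0.0338 under DMSO and 0.0507 and 0.0371 under GSK-J4, and the first GSK-J4 library stood apart, with 16676 islands of median width 3000 bp against 7175 to 8006 islands of 6600 to 7400 bp in the other 3. For H3K4me1 the background was 0.0902 and 0.0849 in siCtrl and 0.107 and 0.105 after knockdown, and 0.0483 to 0.0569 in the compound experiment. H3K27me3 islands of the compound experiment also lay where H3K4me1 lay. H3K4me1 islands of the same condition held 50.1% to 57.7% of H3K27me3 island bases under DMSO and 51.0% to 67.8% under GSK-J4, against 8.90% to 9.06% in siCtrl and 11.2% to 11.5% after knockdown. Among 10 markers of the adrenergic neuroblastoma state, 0 had an H3K27me3 island in siCtrl cells and 6 had one in both DMSO libraries, where H3K27me3 covered 40.7% to 42.2% of the marker windows on average. After knockdown 1 had such an island in both libraries, and under GSK-J4 7. All 10 carried H3K4me1 in every group. What this has to do with the PAX values was not tested, and the levels of the compound experiment are set beside those of the knockdown experiment without a test. The 2 libraries of a group are described as biological replicates, with no word on separate cultures, so p-values measure the spread between these libraries only.

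All PAX genes but PAX5, 8 of 9, carried H3K27me3 in every library of that mark. Both siCtrl libraries had an island in the window of 88.9% of PAX genes, against 73.7% of 19 SOX genes, 58.7% of 46 FOX genes, 76.9% of 39 clustered HOX genes and 21.5% of all protein-coding genes. In siCtrl cells 88.9% to 98.6% of all protein-coding genes had lower coverage than these 8. Median coverage of the 9 was 38.0% in siCtrl, below the 94.6% of HOX genes and above the 19.7% of SOX and 6.56% of FOX genes. The annotated start of these 8 genes lay inside an H3K27me3 island in 8 of 8 libraries, and the 1 kb on each side of it was covered over 95.1% to 100% of its length in siCtrl and knockdown cells. At PAX5 the start was covered in 0 of 8.

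Ordered by mean H3K27me3 coverage over the 8 libraries of the mark, PAX1 came first at 71.8%, followed by PAX6 at 60.1%, PAX4 at 51.3%, PAX9 at 46.4%, PAX2 at 38.7%, PAX3 at 35.8%, PAX7 at 25%, PAX8 at 15.4% and PAX5 at 0.273%. PAX1, with 63.1% to 78.4%, did not overlap PAX6, with 54.4% to 62.3%. PAX5 reached at most 1.33%, under the lowest PAX8 value of 6.58%. All other neighbours in this order overlapped. The place of PAX3 differed by group, since its group means were 38.0% in siCtrl, 63.6% after knockdown, 22.9% under DMSO and 18.6% under GSK-J4, above PAX6 after knockdown and under PAX7 in both groups of the compound experiment. Coverage is a share of unlike windows, from 17.9 kb at PAX4 to 211 kb at PAX5, so widths are given as well. The widest H3K27me3 island of a library measured 24.8 to 38.6 kb at PAX7, 24.4 to 38.2 kb at PAX3, 18.2 to 34.8 kb at PAX6 and 18.8 to 34.4 kb at PAX2, against 8.40 to 9.80 kb at PAX4.

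H3K4me1 divided the family further. PAX8 and PAX4 had no H3K4me1 island in any of the 8 libraries. Mean coverage was 35.9% at PAX6, 30.1% at PAX2, 19.4% at PAX1, 17.5% at PAX9, 13.5% at PAX7, 9.15% at PAX3 and 7.76% at PAX5, and the ranges of all neighbours among these 7 overlapped. In siCtrl the order differed, with PAX2 at 28.8%, PAX6 at 22.5%, PAX5 at 14.6%, and PAX1 and PAX9 at 0%. The start lay in an H3K4me1 island in 8 of 8 libraries at PAX2, PAX3 and PAX6, in 6 at PAX1, in 5 at PAX9, in 2 at PAX7 and in 0 at PAX5, PAX8 and PAX4. At PAX2, PAX3 and PAX6 the start thus lay in an island of each mark in all 8 libraries of that mark.

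**Figure D1:**
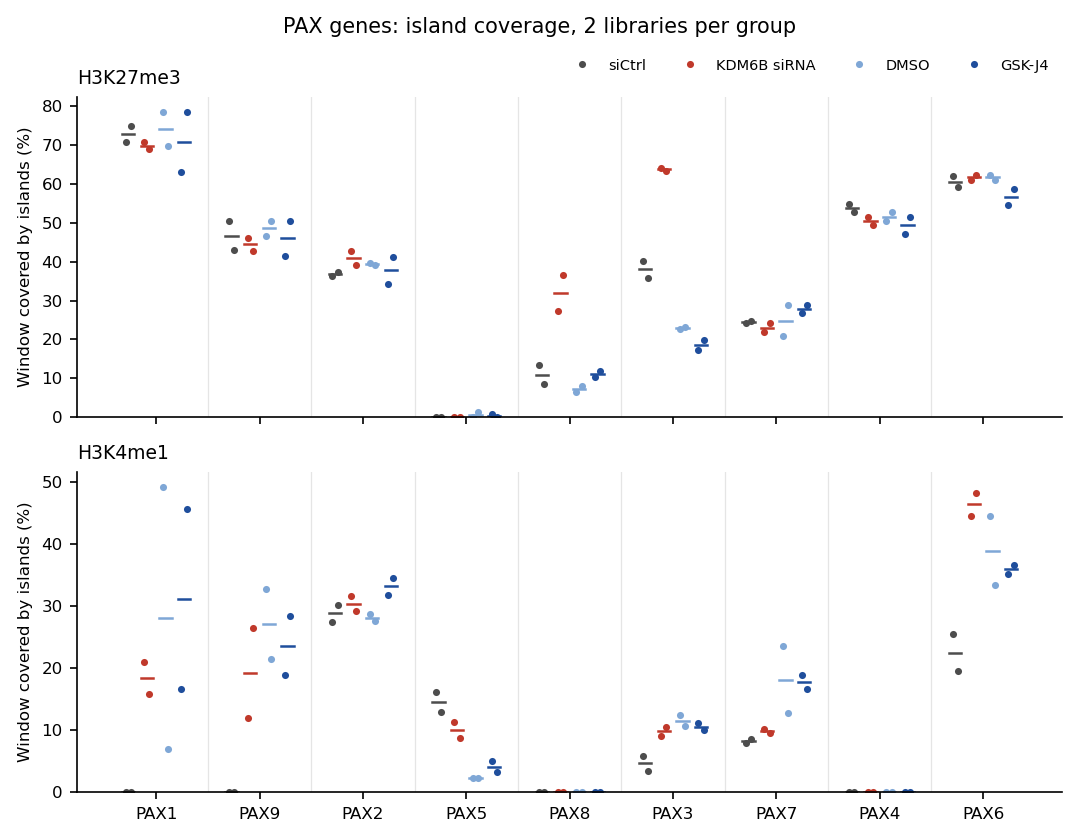
Percent of each PAX window covered by H3K27me3 (upper) or H3K4me1 (lower) islands. Points are single libraries and short bars the mean of 2, coloured by group. KDM6B siRNA stands above siCtrl for H3K27me3 at PAX3 (63.2% and 64.1%) and PAX8 (27.4% and 36.6%), and PAX8 and PAX4 sit at 0 for H3K4me1 throughout.

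The next comparisons ask whether loss or inhibition of KDM6B moved either mark at these genes. A gene was called apart when both treated libraries lay above, or both below, both controls. Because 2 libraries stood against 2, the exact two-sided permutation test could reach no p below 0.333, and over the 36 pairs of gene and comparison the Benjamini-Hochberg value of each coverage call below was 0.800. No difference passed the test, and "higher" and "lower" name the position of the libraries only.

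After KDM6B knockdown, H3K27me3 coverage was apart and higher at PAX3, PAX8 and PAX2 and apart and lower at PAX4. Of the 5675 protein-coding genes with an island in any of the 4 libraries, 35.4% were apart and higher and 11.5% apart and lower, so 3 and 1 of 9 were near the background in count. In size PAX3 and PAX8 exceeded the rest of the family, with differences of 25.6 and 21.0 percentage points where the median gene with signal differed by 1.01.

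PAX3, a regulator of neural crest and muscle precursors, is on the minus strand of chromosome 2 (chr2:223064606-223163717). H3K27me3 islands covered 40.2% and 35.9% of its window in siCtrl and 64.1% and 63.2% after knockdown, or 38.0% ± 3.11 against 63.6% ± 0.648 (SD, n = 2). Both knockdown libraries were high and close to each other. The island over the start was shorter after knockdown, 28.2 and 24.8 kb against 30 and 38.2 kb, and ended 13.1 and 9.92 kb into the gene against 15.7 and 23.1 kb. In both knockdown libraries a separate island of 9.20 or 12.4 kb followed close after it and ended at 23.3 kb. The first siCtrl library was split in the same way, with an island of 6.60 kb that ended at 23.1 kb. The added coverage lay further in, where 16.8 kb in 8 separate segments, from 23.1 kb after the start to past the end of the gene, was covered in both knockdown libraries and in neither control. The longest, 5.80 kb, lay in intron 4, 40.3 to 46.1 kb from the start (chr2:223117601-223123400). Others lay in intron 4 at 53.1 to 55.9 kb, over exons 6 to 7 at 77.7 to 79.9 kb and in intron 7 at 82.3 to 84.9 kb. No segment showed the opposite pattern. Under GSK-J4 the order was the other way: 22.7% and 23.2% under DMSO and 17.3% and 19.9% with the compound, a difference of -4.31 points. There, 2.80 kb in intron 4 at the inner edge of the start domain, 10.3 to 13.1 kb from the start, was covered in both DMSO libraries and in neither GSK-J4 library.

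Covered length differed between the groups as well. The siCtrl H3K27me3 libraries covered 53.7 and 54.2 Mb of the genome and the knockdown libraries 89.8 and 87.3 Mb. When each library was held to the same covered length, taking the islands of highest score first, the PAX3 difference was 3.76 points and the groups overlapped. Its part in the result was otherwise not tested. Without any single library the difference ran from 23.4 to 27.8 points.

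PAX8, a regulator of thyroid and kidney, is also on the minus strand of chromosome 2 (chr2:113973574-114036498), and the lncRNA PAX8-AS1 lies in its window. H3K27me3 coverage was 13.4% and 8.50% in siCtrl and 27.4% and 36.6% after knockdown. The groups did not overlap, though the 2 knockdown libraries differed by more than the 2 controls. The widest island measured 10.4 and 11.8 kb against 6.00 and 4.60 kb in siCtrl. Of intron 2, 3 segments with 10.0 kb in sum were covered in both knockdown libraries and in neither control, the longest 5.40 kb, 9.30 to 14.7 kb from the start (chr2:114021801-114027200). At equal covered length the difference was 10.8 points and the groups stayed apart. Under GSK-J4 coverage was 10.4% and 11.9% against 6.58% and 7.95% under DMSO, a difference of 3.91 points, but no segment was covered in both GSK-J4 libraries and in neither control, and at equal covered length the groups overlapped.

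**Figure D2:**
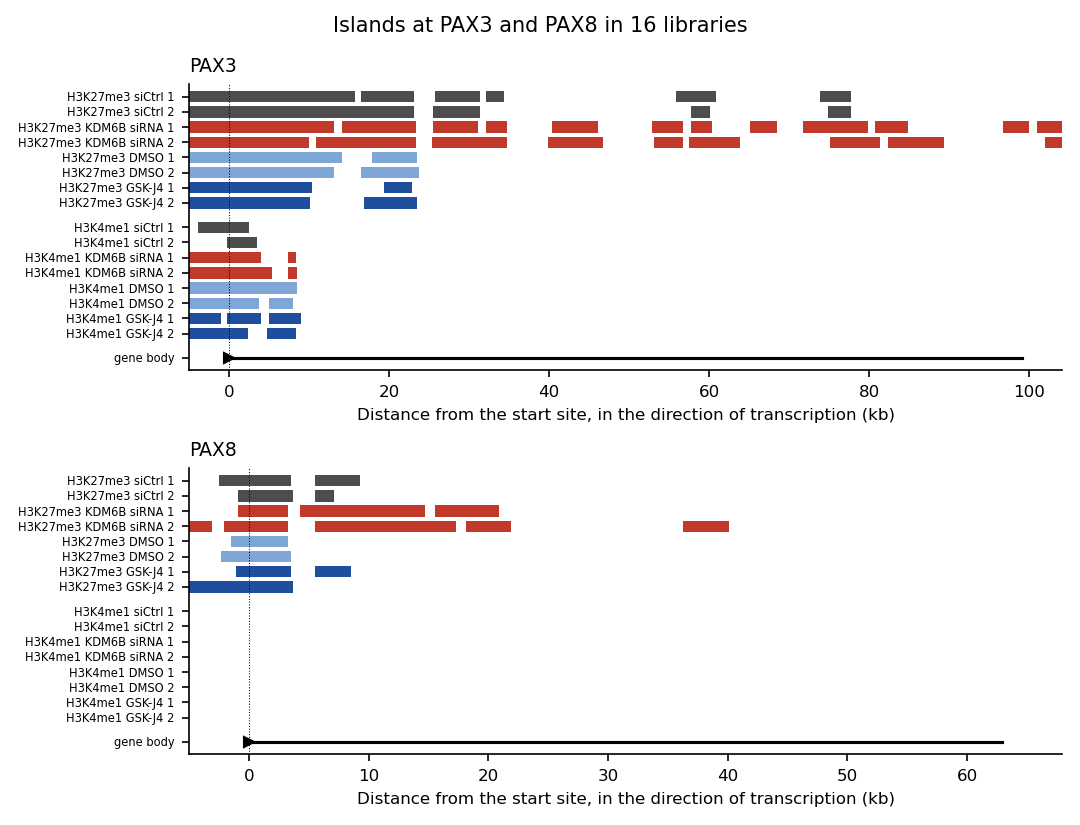
Islands at PAX3 and PAX8 in all 16 libraries, against the distance from the start site in kb in the direction of transcription; the window ends 5 kb outside the gene body. At PAX3 the start domain is present in every H3K27me3 library and the knockdown libraries add islands beyond 40 kb, and at PAX8 they add islands between 9.30 and 20.9 kb, with no H3K4me1 island anywhere.

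PAX2, needed for kidney, optic stalk and midbrain-hindbrain development (chr10:102495153-102589701), had H3K27me3 over 36.2% and 37.2% of its window in siCtrl and 42.8% and 39.1% after knockdown. The difference, 4.26 points, held at equal covered length and was 2.39 points without the first knockdown library. Segments in both knockdown libraries and neither control summed to only 1.80 kb, in introns 3 and 7. GSK-J4 gave overlapping values, 34.3% and 41.2% against 39.6% and 39.1%. Yet 1 stretch of PAX2 was covered in both GSK-J4 libraries and in neither DMSO library, 3.80 kb over exons 6 to 7 (chr10:102565401-102569200). The 3.00 kb within it, 60.9 to 63.9 kb from the start, carried H3K4me1 in all 8 libraries of that mark and H3K27me3 over 0% of its length in the 6 libraries without the compound and 100% in both with it. The H3K27me3 islands of the compound experiment overlapped H3K4me1 genome-wide, by the shares given above, and the part of that in this result was not tested. A segment of 2.00 kb in intron 3 had the opposite pattern.

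At the remaining covered genes the H3K27me3 groups lay close together or overlapped. PAX1, which patterns the vertebral column (chr20:21686297-21699119), had 70.6% and 74.9% in siCtrl and 70.6% and 68.8% after knockdown. PAX9, needed for teeth, thymus and parathyroid (chr14:37126773-37148567), had 50.3% and 42.9% against 46.0% and 42.8%. PAX7, which marks muscle satellite cells and neural crest (chr1:18957340-19075360), had 24.1% and 24.7% against 21.8% and 24.1%. The groups overlapped at these 3, and at equal covered length PAX7 was lower by -3.59 points. PAX4, a factor of pancreatic beta cells (chr7:127250346-127258196), had 54.9% and 52.7% against 51.5% and 49.3% and was the only gene apart and lower, by -3.35 points. In the gene body alone its difference was -1.27 points and the groups overlapped. PAX6, the regulator of eye, brain and pancreas (chr11:31806327-31839509, with ELP4 and the lncRNA PAUPAR also in its window), had 61.9% and 59.1% against 60.9% and 62.3%.

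Under GSK-J4, H3K27me3 coverage was apart and lower at PAX3 and PAX6 and higher at PAX8, where 10.5% and 14.3% of 7762 genes with signal were so placed. PAX6 had 62.3% and 60.9% under DMSO and 54.4% and 58.6% under GSK-J4, a difference of -5.09 points that was -1.39 with islands within 2 kb joined and -3.31 in the gene body alone, where the groups overlapped, and 0.600 kb upstream was covered in both DMSO libraries alone. Leaving out the first GSK-J4 library, which stood apart in islands, the same count of 2 was lower and the PAX3 difference was -3.02 points, whereas leaving out the second gave 6 lower. A gene apart with every library stays apart when a library is left out, so such a count cannot fall. The PAX1, PAX9, PAX2, PAX5, PAX7 and PAX4 groups overlapped.

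H3K4me1 after KDM6B knockdown was apart and higher at PAX1, PAX9, PAX3, PAX7 and PAX6 and apart and lower at PAX5. Across the genome 66.5% of 14019 genes with signal were apart and higher and 13.8% apart and lower, so 5 and 1 of 9 PAX genes were near the background in count. At equal covered length the PAX1, PAX9, PAX3, PAX6 and PAX5 groups stayed apart and the PAX7 groups overlapped.

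PAX1 and PAX9 showed the plainest form of this: no H3K4me1 island in either siCtrl library and one in both knockdown libraries. Over all protein-coding genes, the share with an island in both libraries was 39.5% in siCtrl and 65.2% after knockdown. At PAX1 coverage was 0% and 0% in siCtrl and 21.0% and 15.8% after knockdown, and at PAX9 0% and 0% against 12% and 26.4%. At PAX1 the segments in both knockdown libraries and neither control were 1.80 kb over the start and exons 1 to 2 and 1.60 kb upstream. At PAX9 the like segment was 3.80 kb, 6.06 to 2.27 kb before the annotated start, and the start itself was covered in 1 of the 2 knockdown libraries. Of the H3K27me3 length, H3K4me1 held 0% at either gene in siCtrl and, after knockdown, 22.4% to 30.6% at PAX1 and 26.0% to 61.8% at PAX9. Both genes carried H3K4me1 in every library of the compound experiment, DMSO included: PAX1 49.1% and 7.01% under DMSO and 16.6% and 45.6% under GSK-J4, and PAX9 32.7% and 21.4% against 18.9% and 28.3%. Those groups overlapped and their replicates lay far apart at PAX1. At equal covered length PAX9 was apart and lower under GSK-J4, by -9.44 points.

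At PAX6, H3K4me1 covered 25.5% and 19.5% of the window in siCtrl and 44.5% and 48.2% after knockdown, or 22.5% ± 4.26 against 46.3% ± 2.62 (SD, n = 2). The difference, 23.9 points, was the widest of the family for this mark. Downstream of the start, 3 segments with 8.40 kb in sum were covered in both knockdown libraries and neither control, the longest 4.20 kb over exons 3 to 4. All lay where H3K27me3 was present in all 8 libraries of that mark. The share of PAX6 H3K27me3 length also in an H3K4me1 island was 31.5% to 43.1% over the 4 library pairs of siCtrl and 71.4% to 79.1% after knockdown. At equal covered length the H3K4me1 difference was 17.4 points. With the compound, PAX6 had 35.2% and 36.6% against 44.5% and 33.3% under DMSO, which overlapped.

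PAX3 had 5.87% and 3.48% of its window under H3K4me1 in siCtrl and 9.09% and 10.6% after knockdown, with the start island 13.4 and 15.2 kb long against 6.40 and 3.80 kb. No H3K4me1 island reached beyond 8.92 kb into the gene in any library, and the distant intronic segments described above carried H3K27me3 alone. PAX7 had 7.97% and 8.59% against 10.2% and 9.53%. In siCtrl its H3K4me1 lay in intron 7 alone, where segments of 2.20 and 3.00 kb, 89.5 to 95.5 kb from the start, were present in all 8 libraries. After knockdown both libraries also had an island in intron 4, sharing 3.20 kb at 11.5 to 14.7 kb, and islands within the first 18.7 kb were present in every library of the compound experiment. Under GSK-J4 the PAX7 start was inside an H3K4me1 island of 9.20 kb in both libraries and in neither DMSO library, although an island of 8.20 kb in the first DMSO library began 0.061 kb after the start, while total coverage overlapped, 18.9% and 16.7% against 23.6% and 12.7%. At PAX2 coverage after knockdown overlapped the controls, 31.6% and 29.1% against 27.4% and 30.2%. Under GSK-J4 it was higher, 31.8% and 34.5% against 28.7% and 27.5%. The island over the start was longer under GSK-J4 at PAX2, 16.2 and 15.6 kb against 12.6 and 9.80 kb, and shorter at 3 genes. These were PAX3 (4.20 and 7.40 kb against 19.0 and 17.6 kb), PAX6 (7.60 and 7 kb against 11.2 and 11.2 kb) and PAX9 (6.00 and 3.80 kb against 10.4 and 6.80 kb). In both GSK-J4 libraries at PAX6, and in 1 of them at PAX3 and at PAX9, a further island lay beyond a short gap on the upstream side, and coverage overlapped at all 3, at PAX3 with 11.1% and 10.0% against 12.4% and 10.7%. The PAX2 start island also had a further island beyond a short gap, of 4.80 and 7.80 kb under DMSO and 5.00 and 1.60 kb under GSK-J4.

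**Figure D3:**
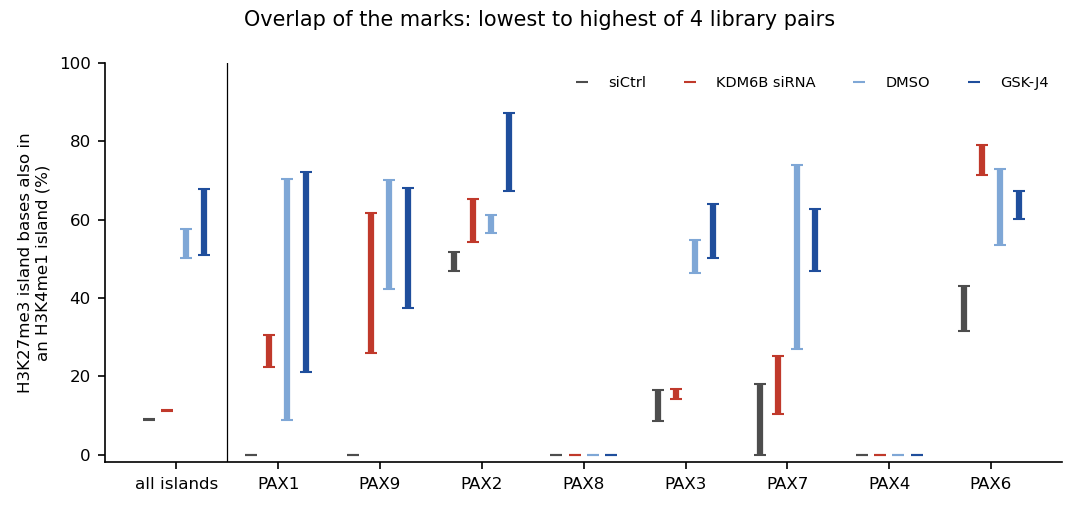
Percent of H3K27me3 island bases that also lay in an H3K4me1 island, genome-wide (left) and in each PAX window; bars span the lowest to the highest of the 4 pairs of libraries of a condition, and PAX5 is left out because most of its libraries had no H3K27me3 island. PAX8 and PAX4 sit at 0, and PAX6 reads 31.5% to 43.1% in siCtrl and 71.4% to 79.1% with KDM6B siRNA, where all islands read 8.90% to 9.06% and 11.2% to 11.5%.

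PAX5, the factor of B-cell identity, is the longest gene of the family (chr9:36833266-37034265, minus strand) and was the only member without H3K27me3 at its start and the only one whose H3K4me1 coverage was apart and lower after knockdown. H3K27me3 covered 0% in all 4 libraries of the knockdown experiment, 0% and 1.33% under DMSO and 0.853% and 0% under GSK-J4. H3K4me1 covered 16.2% and 13.0% in siCtrl and 11.3% and 8.72% after knockdown, a difference of -4.60 points, where 13.8% of genes were lower. Of its introns, 5 segments with 6.00 kb in sum were covered in both siCtrl libraries and in neither knockdown library, the longest 2.20 kb in intron 7. A further 3, 2.20 kb in sum, had the opposite pattern. The widest PAX5 island, in intron 1, also went the other way, 9.60 and 9.40 kb after knockdown against 7.80 and 7.80 kb, with a SICER score of 1409 and 1314 against 367 and 369. Under DMSO coverage was 2.37% and 2.27% and under GSK-J4 5.02% and 3.22%, so the direction was the other way at a level well under that of siCtrl. That difference was 1.80 points, and the groups overlapped when islands under 2 kb were left out.

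A single PAX5 site was called in every H3K4me1 library, 1.2 kb of intron 5, 53.3 to 54.5 kb from the start. Its strongest summit fell within 29 bases of the median summit in 7 of the 8 libraries, and within 160 in the other. The pileup at the strongest PAX5 summit was 26 and 26 tags in siCtrl, 12 and 16 after knockdown, 9 and 9 under DMSO and 6 and 6 under GSK-J4, at this site in every library but the second GSK-J4 library. Over the genome background these summits were 288 and 306 in siCtrl against 112 and 152 after knockdown, and 158 and 186 under DMSO against 110 and 107 under GSK-J4, lower on both scales in both comparisons. The 2 H3K27me3 islands found anywhere in the PAX5 window, in the second DMSO and the first GSK-J4 library, covered this same site, and the strongest H3K27me3 narrow peak of the window lay 53.9 to 54.0 kb from the start in all 4 libraries of the compound experiment.

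**Figure D4:**
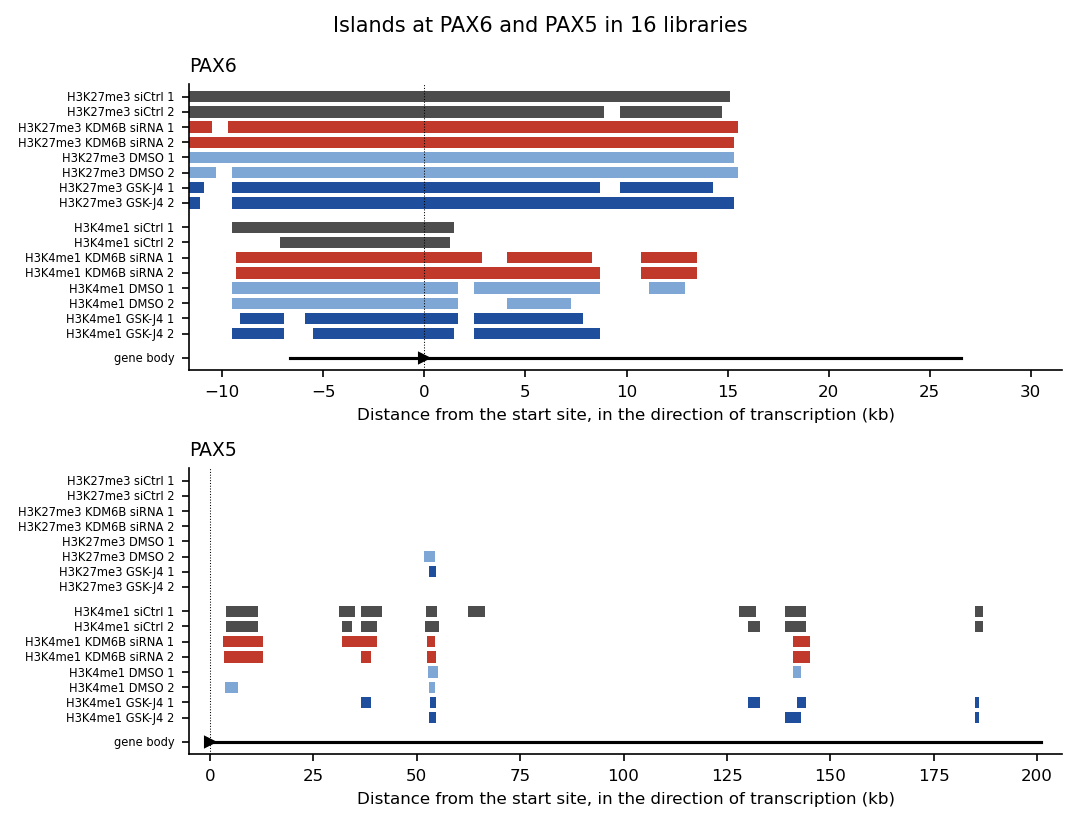
Islands at PAX6 and PAX5 in all 16 libraries, against the distance from the start site in kb in the direction of transcription. H3K4me1 reaches beyond 10 kb into PAX6 in both knockdown libraries and the first DMSO library, and the PAX5 island at 53.3 to 54.5 kb is present in all 8 H3K4me1 libraries.

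Narrow peaks, called where tags pile up at single sites, were counted next. For H3K27me3 after knockdown the peak number was higher at PAX1 (8 and 10 against 6 and 7), PAX3 (18 and 18 against 16 and 13) and PAX4 (3 and 3 against 2 and 2) and lower at PAX7 (4 and 4 against 10 and 9), where 14.1% and 5.47% of genes with a peak were higher and lower. Among peaks with a −log10 q of at least 5, PAX1 and PAX3 overlapped (6 and 6 against 5 and 6, and 6 and 10 against 7 and 8) and PAX2 was lower, 17 and 15 against 23 and 22. At that limit PAX7 was also lower, and PAX8 (1 and 3 against 0 and 0), PAX4 (1 and 2 against 0 and 0) and PAX6 (8 and 7 against 5 and 6) were higher. After GSK-J4 only PAX1 was apart, with 5 and 6 peaks against 7 and 7, where 19.9% and 2.98% of genes were higher and lower. At the limit of 5 its groups overlapped, 4 and 2 against 3 and 4, and PAX7 was lower, 0 and 0 against 3 and 1. For H3K4me1 after knockdown 6 genes were higher and PAX5 was lower (20 and 16 against 28 and 23), beside 44.6% and 13.6% of genes. At the limit of 5 the count was 4 higher and 0 lower, and PAX5 overlapped, 6 and 10 against 8 and 12. The largest was PAX2, with 36 and 37 peaks against 23 and 24, a gene whose H3K4me1 coverage overlapped. PAX6 had 15 and 11 against 5 and 5. Under GSK-J4 PAX3 alone was apart and higher, 7 and 7 against 4 and 2, beside 13.4% higher and 8.24% lower. Of those 7 and 7 peaks 0 reached a −log10 q of 5.

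H3K27me3 summits stood lower over the background at 6 of 9 PAX genes after either treatment, each with an exact p of 0.333 and 0.500 after Benjamini-Hochberg adjustment over the 36 pairs. The strongest summit of a window, in tags over the genome background of its library, was apart and lower after knockdown at PAX1, PAX9, PAX2, PAX3, PAX7 and PAX6 and higher at PAX4. Over genes with a peak, 21.5% were lower and 11.4% higher, and over the 4032 genes with an H3K27me3 island in all 4 libraries 45.9% were lower and 10.7% higher, against 6 and 1 of the 8 PAX genes so marked. At PAX9, where a summit at -5.79 to -5.78 kb from the start led in all 4 libraries, the values were 1063 and 947 in siCtrl and 464 and 548 after knockdown. PAX2 read 1063 and 1421 against 650 and 662, but at different sites, -1.76 and -1.74 kb from the start in siCtrl and 82.5 kb in both knockdown libraries. The leading site also differed between libraries at PAX3, PAX7, PAX4 and PAX6. In tags alone the count was 3 lower (PAX9, PAX2, PAX7) and 4 higher, and PAX1 and PAX6 changed side, so only those 3 were lower on both scales. PAX3 thus had wider H3K27me3 coverage and a lower scaled summit, 724 and 718 against 1341 and 972, in the same libraries.

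After GSK-J4 the scaled H3K27me3 summit was lower at the same 6 genes, where 17.8% of genes were lower and 14.4% higher, and 31.5% and 15.1% among 4332 genes with an island in all 4 libraries. PAX1 read 873 and 739 under DMSO and 474 and 539 under GSK-J4, led by a site at -2.45 kb from the start in the second DMSO library and at 0.238 to 0.304 kb in the other 3, and PAX7 604 and 503 against 197 and 189. The leading site also differed between libraries at PAX9 and PAX6. By the definition of apart, each GSK-J4 library alone was under both DMSO libraries at these 6, so leaving the first out tests nothing here. In tags alone PAX1, PAX2 and PAX7 were lower and the other 3 overlapped. H3K4me1 summits went the other way after knockdown, higher at 6 genes and lower at PAX5 and PAX7, beside 65.8% and 15.6% of genes, with PAX2 at 421 and 485 against 200 and 165, at 62.9 kb from the start in both siCtrl libraries and at 82.5 and -0.453 kb after knockdown, and PAX6 at 383 and 428 against 99.8 and 165. Under GSK-J4 they were higher at 0 and lower at PAX5, PAX3 and PAX7, beside 16.2% and 21.2%. The leading site of the second GSK-J4 library was another one at PAX7, 24.7 kb from the start against 93.1 to 93.5 kb, and at PAX5, 186 kb against 53.8 to 54.0 kb. In tags alone PAX5 and PAX3 were lower and PAX7 overlapped.

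**Figure D5:**
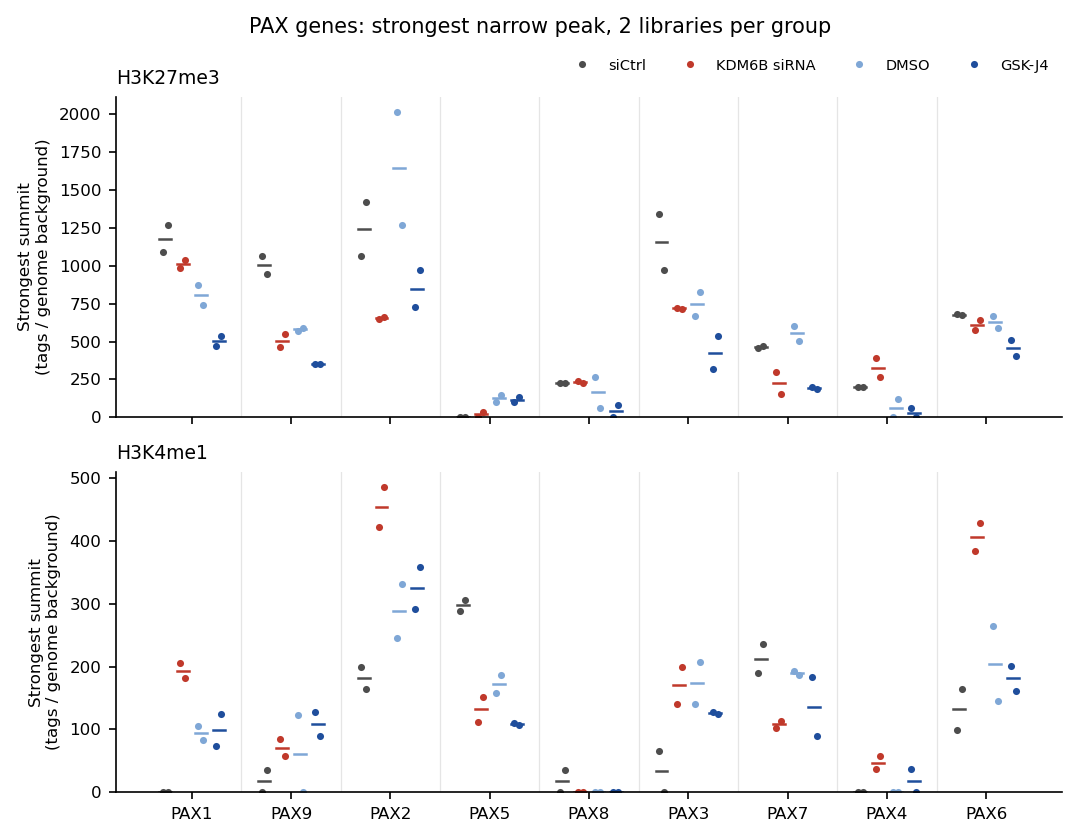
Strongest narrow peak of each PAX window, as summit tags over the genome background of the library, for H3K27me3 (upper) and H3K4me1 (lower). Points are single libraries and short bars the mean of 2; in the upper panel both treated libraries lie under both of their controls at PAX1, PAX9, PAX2, PAX3, PAX7 and PAX6, and a 0 means that no narrow peak was called.

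Genes that act with PAX factors were counted as whole lists. In a network of 12 genes of the SIX2, EYA2 and DACH1 families, partners of PAX genes in eye, ear and kidney, H3K27me3 coverage after knockdown was higher at 3 of 12 and lower at 1, beside 35.4% and 11.5% of all genes with signal. The higher ones were SIX2 (33.6% and 18.2% against 0% and 0%), SIX3 (17.8% and 19.2% against 3.90% and 2.51%) and EYA2 (28.1% and 25.4% against 9.73% and 14.5%), and SIX4 was lower. Median coverage of the list was 1.74% in siCtrl, against 38.0% for PAX. Among 12 neural plate border and neural crest regulators, 2 were higher (ZIC1 and SOX9) and 2 lower, and MSX1 was covered over 100% in every H3K27me3 library. Of the 10 adrenergic core factors, a list with TBX2 and MEIS2 in place of the TH and DBH of the markers above, 0 had an H3K27me3 island in the knockdown experiment. Under GSK-J4, 4 of the 12 network genes were lower and 0 higher, beside 10.5% and 14.3% of genes.

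H3K4me1 after knockdown was higher at 7 of 12 network genes, 8 of 12 crest genes and 7 of 10 adrenergic factors, and lower at 0 in each, near the 66.5% of all genes with signal that were higher. The median differences were 6.18, 10.7 and 12.7 points, against 1.58 over the 9 PAX genes and 1.05 over all protein-coding genes, those without signal included. Over the protein-coding genes with signal the median difference was 4.44. HOX genes had 26 of 39 higher, SOX genes 12 of 19 and FOX genes 18 of 46, against 5 of 9 PAX genes. Under GSK-J4 the adrenergic factors had 5 of 10 lower and 0 higher, the crest genes 4 of 12 lower, and the PAX genes 2 higher and 0 lower, beside 22.8% and 17.7% of 9069 genes.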

How the data were processed

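H3K27me3 and H3K4me1 were mapped by CUT&Tag in BE2C cells, 2 libraries in each of 8 groups, with groups and replicate numbers taken from the sample titles. The authors aligned reads to hg19 with BWA 0.7.12, removed duplicates with Picard 1.65, and called regions in each library on its own, islands with SICER 1.1 (200-bp windows) and narrow peaks with MACS2. The deposited island lists hold a score that sums over windows and grows with depth. The deposited narrow peak lists hold a fold (ratio of summit to background), −log10 p and −log10 q. Neither holds reads per region, so the spike-in scaling and the voom and limma test of the study could not be run.

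Genes came from GENCODE 44 mapped to GRCh37. The members and lists were chosen with earlier results of these data known. Summit tags and genome background were solved from fold and −log10 p, taking the lowest background among the 20 commonest pairs. Values were compared by exact two-sided permutation over libraries. The functions were tested on simulated data. Alternatives were the gene body alone, islands of at least 2 kb, islands within 2 kb joined, equal covered length, islands scoring above the median of their library, q limits, a replicate block and each library left out. The PAX5 site and the gene segments were picked after their values were seen. Python 3.11.15, NumPy 2.4.6, pandas 2.3.3, SciPy 1.17.1 and matplotlib 3.10.9 were used. The number of libraries and their tags limit the precision of every value. Some genes of the lists and some sequences are not reported here.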

Additional observations from a re-analysis of the deposited data

Results flagged for a closer look

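PAX3 H3K27me3 coverage differed between the experiments. Knockdown minus siCtrl was 25.6 points and GSK-J4 minus DMSO was -4.31 points, a gap of 29.9. Both knockdown libraries lay above both siCtrl libraries, and both GSK-J4 libraries lay under both DMSO libraries. By an exact permutation within each contrast, over 36 arrangements, p was 0.0556, the smallest this design allows, and 0.400 after Benjamini-Hochberg adjustment over the 18 pairs of gene and mark. Any pair of gene and mark with its 2 contrasts apart in opposite directions gives this p, so it adds nothing to those positions. At equal covered length the 2 differences were 3.76 and -7.33 points.

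PAX5 H3K4me1 coverage did likewise: -4.60 points after knockdown and 1.80 under GSK-J4, a gap of -6.40, with the same exact p of 0.0556 and adjusted 0.400. At equal covered length the differences were -6.49 and 0.616 points. Neither gap passed the threshold after adjustment. No other pair of gene and mark had every library of one contrast higher and every library of the other lower.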

How the results depend on the processing

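Summits in the PAX windows held 2 to 60 tags where a peak was called, and 2 libraries a group cannot give a p under 0.333. The labels link samples only by a replicate number. Deviations of same-numbered libraries correlated by -0.0424 to 0.0691, which cannot show whether they shared a culture. With a replicate block, 3 PAX genes in place of 1 were lower for H3K27me3 after knockdown, and 1 in place of 0 for H3K4me1 under GSK-J4; it moved no other count by over 1.5 times, and a paired test of 2 pairs cannot give a p under 0.5.

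For H3K27me3 after knockdown, the count lower (1) was 0 with the gene body alone and 2 with islands joined or at equal covered length, and the median change in narrow peaks (1.00) was 0 at −log10 q of at least 2. For H3K27me3 under GSK-J4, the count lower (2) was 1 with the gene body alone or islands joined and 4 with islands scoring above the median, and the count higher (1) was 0 at equal covered length. The median coverage difference (-2.24) was -1.16 with the gene body alone and -1.39 with islands joined. The median change in narrow peaks (-1.50) was -0.500 at −log10 q of at least 5. For H3K4me1 after knockdown, the median coverage difference (1.58) was 3.78 at equal covered length and 2.53 with islands joined. The counts higher (5) and lower (1) were 3 and 2 with islands scoring above the median, and the median change in narrow peaks (2.00) was 0.500 at −log10 q of at least 5. For H3K4me1 under GSK-J4, the count higher (2) was 1 with islands of at least 2 kb or islands scoring above the median, and the count lower (0) was 1 at equal covered length or with islands scoring above the median. The median change in narrow peaks (1.00) was 0 at −log10 q of at least 5. The PAX3 narrow peak difference there, 4.00, turned to -0.500 at −log10 q of at least 5. The causes were not tested.

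Leaving out each library in turn, the counts lower were 2 to 3 and 2 to 6 for H3K27me3 after knockdown and under GSK-J4, and 0 to 5 for H3K4me1 under GSK-J4. Fewer libraries are easier to separate, and genes already apart stay so, so these counts could only stay or rise. The counts higher were 1 to 2 for H3K27me3 and 2 to 5 for H3K4me1 under GSK-J4. Libraries that moved a count by over 1.5 times were all 4 for H3K27me3 lower after knockdown, GSK-J4 replicate 1 and DMSO replicate 2 for higher and GSK-J4 replicate 2 and DMSO replicate 1 for lower with the compound, and for H3K4me1 DMSO replicate 1 (higher) and DMSO replicate 2 and both GSK-J4 libraries (lower). Median coverage differences were -5.07 to 1.82 for H3K27me3 under GSK-J4 and 1.25 to 3.01 for H3K4me1 after knockdown. Those that were 0 with every library ran from -0.232 to 1.53 (H3K27me3 after knockdown) and from -1.83 to 2.20 (H3K4me1 under GSK-J4). Median peak changes were -3.50 to -0.500 for H3K27me3 under GSK-J4, 0.500 to 1.00 for H3K27me3 after knockdown (lowest without siCtrl replicate 1) and 0 to 1.00 for H3K4me1 under GSK-J4 (0 without GSK-J4 replicate 1, 0.500 without DMSO replicate 2). Of the values for single genes, 208 under other settings stayed within the spread, 43 moved and 1 reversed.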
